A study of Mus musculus with 6 samples.

Results

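The epithelial keratins described here are Krt7, Krt8, Krt18, Krt19, Krt20 and Krt23, the 6 of 55 keratin genes that averaged at least 1 RPKM, in a table of 24956 genes. RPKM is the number of reads per kilobase of gene, scaled to the size of the library, and the genes were found by symbol. The lowest mean over the 6 libraries among them was 46.7 RPKM (Krt23), and the highest among the other keratins was 0.643 RPKM (Krt10). The members were chosen by name with their RPKM in these same 6 libraries already known, so their differences between the groups are given as a description and without a test. RNA came from intestinal organoids, three-dimensional epithelial cultures, of Apc Min genotype. Apc Min is a mutant allele of Apc, a restraint on Wnt signalling, and all 6 libraries carry it. DM-aKG, the dimethyl ester of α-ketoglutarate that enters cells, was given to 3 cultures, and 3 cultures were controls. The title of the series asks after Wnt signalling and differentiation. The sources used here give no dose, duration or vehicle, and they do not say whether the replicates, which the series calls biological, came from separate mice. The p-values thus measure only the spread between these libraries, which may be partly technical.

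Keratins are the intermediate filament proteins of epithelial cells. A filament is built from obligate pairs of an acidic type I chain and a basic type II chain, so cells need RNA of both types. In the simple epithelium of the intestine the type II chains are Krt8 and Krt7, and the type I chains are Krt18, Krt19 and Krt20. Krt20 is known as a keratin of differentiated cells near the mucosal surface. Keratin filaments are tied to desmosomes and hemidesmosomes by plakin proteins, and they protect the cell against mechanical and toxic stress.

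Every keratin of the set stood higher in all 3 DM-aKG libraries than in all 3 control libraries. For Krt7, Krt8, Krt18, Krt19 and Krt20 the DM-aKG mean was 1.64 to 1.91 times the control mean. For Krt23 it was 6.33 times the control mean. In the fit across all 10852 tested genes, with limma on log2(RPKM + 0.5), 30.9% were called higher in DM-aKG and 24.7% lower at an adjusted p under 0.05. The 3 DM-aKG libraries lay above the 3 controls in 35.3% of tested genes. Nothing is read from the keratins against these shares, as the members were chosen on this contrast. With each library centred on its median the calls over all genes became 2790 higher and 3340 lower, in place of 3354 and 2679, and the keratins' log2 differences then were 0.66 to 2.56.

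Krt8, the main type II chain of simple epithelia, was the most abundant keratin in every library. Its RPKM was 1208, 1655 and 1696 in the DM-aKG libraries, against 853, 810.1 and 829.7 in the controls. DM-aKG replicate 1 was the lowest of its group and still well above each control. The means were 1520 ± 271 RPKM in DM-aKG and 831 ± 21.5 in control (SD, n = 3 each), a log2 fold change of 0.85 ± 0.12 (SE). Ranked by RPKM among all genes, Krt8 stood at places 21, 5 and 5 in the DM-aKG libraries, against 63, 72 and 66 in the controls.

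Krt18, the type I partner of Krt8, was at 606, 879.7 and 849 RPKM in DM-aKG, against 409.9, 420.1 and 393 RPKM in control. Again DM-aKG replicate 1 was the lowest treated library, and the groups did not overlap. The log2 fold change was 0.91 ± 0.13 (SE). Krt19, the smallest keratin, which lacks most of the tail domain and can stand in for Krt18 as a type I partner, had 821, 973 and 977 RPKM in DM-aKG, against 512, 508 and 515 RPKM in control. Its controls agreed closely, with an SD of 0.635% of the mean, and its log2 fold change was 0.85 ± 0.07 (SE).

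Krt7, a type II keratin typical of ducts and other simple epithelia, was less abundant. It was at 81.8, 102 and 102 RPKM in the DM-aKG libraries, against 57.2, 61.2 and 55.9 RPKM in the controls. The groups did not overlap, and the log2 fold change of 0.70 ± 0.09 (SE) was the smallest of the set.

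Krt20 had the widest spread among the controls. Its RPKM was 60.7, 83.4 and 80.5 in DM-aKG, against 50.0, 30.4 and 38.3 in control. The groups did not overlap, though the highest control came close to the lowest DM-aKG library, each of them replicate 1. The SD was 16.5% of the mean in DM-aKG and 24.9% in control, and the log2 fold change of 0.93 ± 0.18 (SE) was 1.11 without control replicate 1 and 0.75 without control replicate 2. No call is given for Krt20 or for the other members, since they were chosen on this contrast.

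Krt23 encodes a type I keratin that is scarce in resting simple epithelia and is also called hyperacetylation-inducible keratin, after its induction by histone deacetylase inhibitors in human pancreatic cancer cells. It was at 71.2, 86.0 and 84.9 RPKM in DM-aKG, against 13.4, 12.6 and 12.3 RPKM in control. The gap between the groups was far wider than the range of either. The means were 80.7 ± 8.24 RPKM in DM-aKG and 12.7 ± 0.585 in control (SD, n = 3 each), and the log2 fold change was 2.61 ± 0.08 (SE). Of the 10852 tested genes, 20 (0.184%) had a larger log2 fold change, and 3.10% to 5.04% lay beyond the other 5 keratins. These places rest on the contrast on which the members were chosen, so they only describe.

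**Figure D1:**
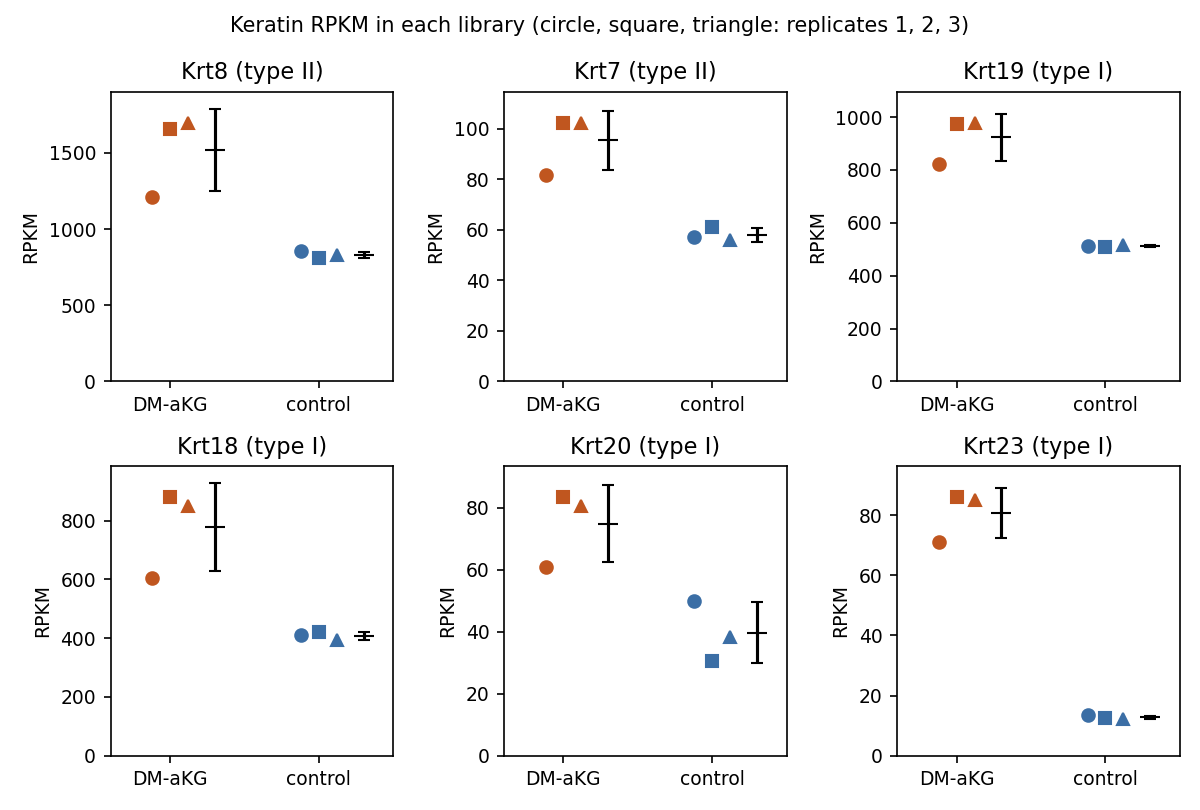
RPKM of each keratin (vertical axes, linear from 0, a scale of its own per panel) in the DM-aKG libraries (orange, left) and the control libraries (blue, right), with the group mean and SD in black. In every panel the 3 DM-aKG points lie above the 3 control points; Krt23 averages 80.7 RPKM in DM-aKG and 12.7 in control.

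The order of the levels, compared per length as RPKM allows, was Krt8, Krt19, Krt18 and Krt7 from the top in every library. Below them the order turned: Krt23 exceeded Krt20 in all 3 DM-aKG libraries, and Krt20 exceeded Krt23 in all 3 controls. Among the controls no neighbours in this order overlapped. Within DM-aKG the ranges of Krt19 and Krt18 overlapped, as did those of Krt7, Krt23 and Krt20, although their order was the same in all 3 libraries. The ratio of Krt23 to Krt20 was 1.17, 1.03 and 1.06 in the DM-aKG libraries, against 0.268, 0.413 and 0.320 in the controls.

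The 6 keratins summed to 2849, 3778 and 3790.3 RPKM in DM-aKG, against 1896, 1843 and 1844 RPKM in control. This was 0.961 ± 0.151% of the RPKM of all genes in DM-aKG and 0.501 ± 0.011% in control (SD, n = 3 each). The shares of the 3 abundant chains overlapped between the groups. Krt8 held 43.6 ± 1.17% of it in DM-aKG and 44.7 ± 0.599% in control, Krt19 held 26.8 ± 1.76% in DM-aKG and 27.5 ± 0.457% in control, and Krt18 held 22.3 ± 1.004% in DM-aKG and 21.9 ± 0.789% in control. Krt23 held 2.34 ± 0.141% in DM-aKG and 0.685 ± 0.021% in control. Krt7 went the other way, with 2.87%, 2.70% and 2.70% of the sum in the DM-aKG libraries, against 3.02%, 3.32% and 3.03% in the controls, without overlap.

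The balance of type II to type I chains, (Krt7 + Krt8) over (Krt18 + Krt19 + Krt20 + Krt23), was 0.827, 0.869 and 0.903 in the DM-aKG libraries, against 0.924, 0.897 and 0.924 in the controls. The DM-aKG values reached lower, and the groups overlapped at DM-aKG replicate 3 and control replicate 2. Without Krt23 in the sum the ratio was 0.906 ± 0.038 in DM-aKG and 0.927 ± 0.016 in control (SD, n = 3 each). The ratio of Krt8 to Krt18 was 1.96 ± 0.066 in DM-aKG and 2.04 ± 0.099 in control (SD, n = 3 each), and the libraries of the groups overlapped.

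**Figure D2:**
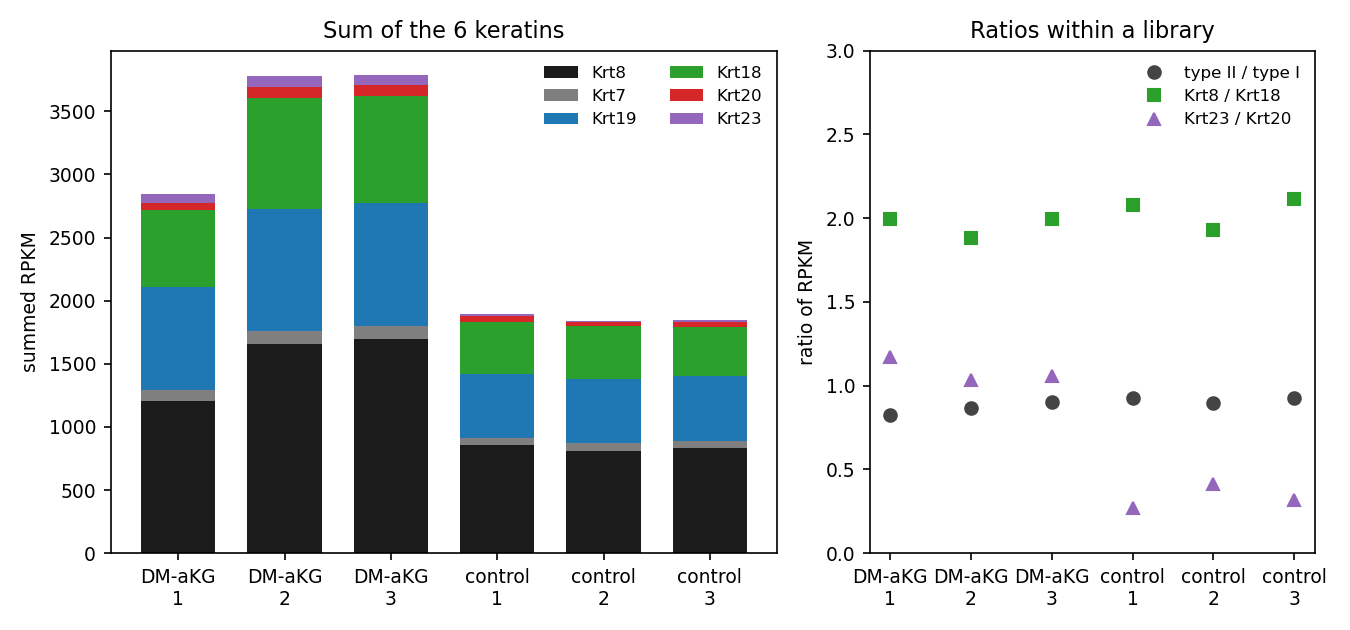
Left, stacked RPKM of the 6 keratins in each library (vertical axis from 0), DM-aKG libraries first; right, ratios of RPKM within each library. The sum is 2849 to 3790.3 RPKM in DM-aKG and 1843 to 1896 in control, while the ratio of Krt8 to Krt18 stays between 1.88 and 2.11 and the ratio of Krt23 to Krt20 is above 1 only in DM-aKG.

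DM-aKG replicate 1 was the lowest of its group for all 6 keratins, at 0.701 (Krt18) to 0.842 (Krt19) of the mean of replicates 2 and 3. That library was the lowest of the 3 in 36.9% of all tested genes and in 60.7% of those called higher. Without it the log2 differences were 1.01 for Krt8, 1.08 for Krt18, 0.93 for Krt19, 0.81 for Krt7, 1.07 for Krt20 and 2.70 for Krt23. The same library lay nearest to the controls for some genes that were lower in DM-aKG. Lyz1, the lysozyme of Paneth cells, was at 232 RPKM there, against 115 and 113 in the other DM-aKG libraries, and at 304, 363 and 302 RPKM in the controls. For Olfm4, a stem cell marker, the values were 18.8 RPKM in that library, 2.94 and 2.59 in the remaining DM-aKG cultures, and 79.7, 103 and 82.5 in the controls. For other genes lower in DM-aKG, replicate 1 lay farthest from the controls. Adm was at 1.07 RPKM in DM-aKG replicate 1, against 3.08 and 2.88 in replicates 2 and 3, and at 3.58, 13.6 and 4.84 in the controls. Alpi was at 221, 256 and 263 RPKM in DM-aKG, against 332, 313 and 326 in the controls. The share of lower genes that went either way was not computed. The part of such differences in the keratin values was not tested. In bulk RNA, fewer cells of a type and less RNA per cell cannot be told apart.

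**Figure D3:**
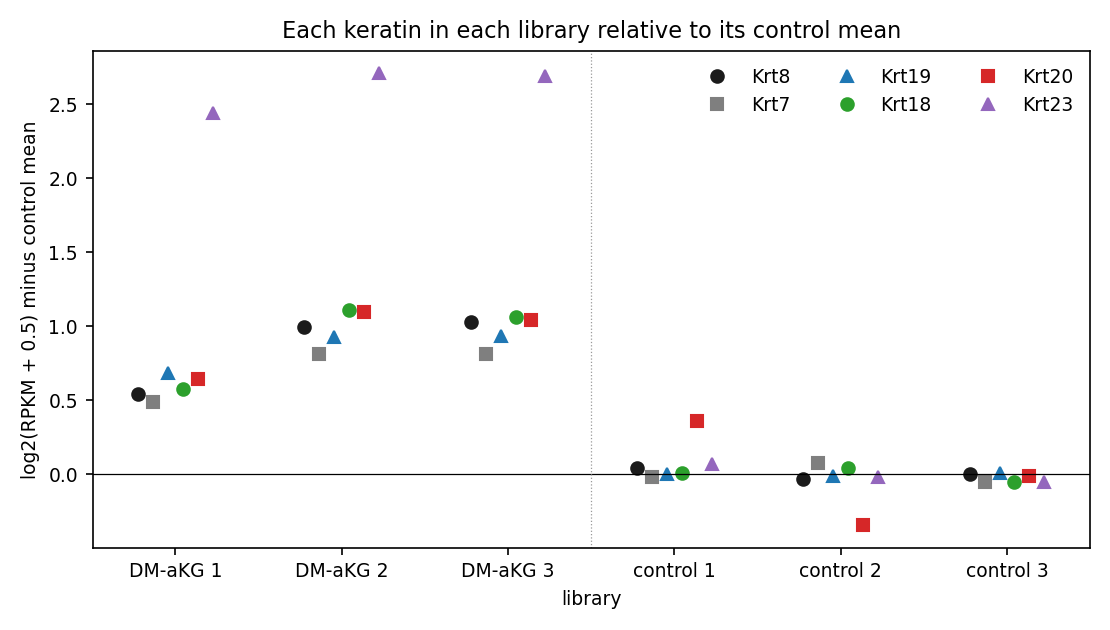
log2(RPKM + 0.5) of each keratin minus its control mean (vertical axis) in each library (horizontal axis), DM-aKG at left. The 5 keratins other than Krt23 lie at 0.49 to 0.68 in DM-aKG replicate 1 and at 0.81 to 1.11 in replicates 2 and 3, and among the controls only Krt20 scatters by more than 0.3.

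The genes lie in the keratin clusters of mouse chromosomes 11 and 15 (GENCODE on GRCm38, the assembly that mm10 names; all are annotated as protein-coding). The type II genes Krt7 (chr15:101411043-101430313, plus strand) and Krt8 (chr15:101996698-102004482, minus strand) share chromosome 15 with Krt18 (chr15:102028180-102032027, plus strand), the type I gene that lies apart from its own cluster. Krt8 and Krt18 are separated by 23697 bases and point away from each other. The other type I genes are Krt20 (chr11:99428403-99438150), Krt23 (chr11:99477974-99493137) and Krt19 (chr11:100140810-100148665), all on the minus strand of chromosome 11. Krt20 and Krt23 lie 39823 bases apart. The annotation also places a gene on the opposite strand that overlaps Krt7 (Gm671) and another that overlaps Krt8 (Gm36026). Krt8 has an annotated processed pseudogene, Krt8-ps, that matches 941 bases of its transcript at 98.6% identity, and Krt18 has one, Gm5200, at 90.2% over 1269 bases. Neither the use of strand in the counting nor the handling of reads that match several places is known here, so the levels of Krt7, Krt8 and Krt18 carry that uncertainty.

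Promoter sequence, as annotated by RefSeq on GRCm38.p6, was matched for 5 of the 6 keratins, all but Krt19. The 250 bases before the RefSeq start site were searched for motifs, and sequence from these windows is shown for the neighbours Krt23 and Krt20, whose differences were so unequal, and for the filament partners Krt8 and Krt18, whose differences were alike. GENCODE places the start sites differently: the last 17 bases of the Krt23 window, 140 of the Krt8 window and 36 of the Krt18 window lie inside its genes and are not shown, and the Krt7 window lies wholly inside Krt7. Capitals mark matches on either strand to any of 7 motifs. The TATA box was searched as TATAAA. For the GC box bound by SP factors the letters were GGGCGG. The AP-1 site was searched as TGANTCA. For the core of the antioxidant response element the letters were TGACNNNGC. The CDX site, known from intestinal genes, was searched as TTTATTG. For TEAD factors, which act with YAP, the letters were GGAATG. The CACCC-type box of KLF and SP factors was searched as CCNCNCCC.
Krt23 (chr11:99493138-99493370, minus strand): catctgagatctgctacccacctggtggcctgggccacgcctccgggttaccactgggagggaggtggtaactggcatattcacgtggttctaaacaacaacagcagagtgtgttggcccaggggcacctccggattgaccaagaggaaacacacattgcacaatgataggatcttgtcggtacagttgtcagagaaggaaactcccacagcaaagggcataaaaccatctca
Krt20 (chr11:99438154-99438403, minus strand): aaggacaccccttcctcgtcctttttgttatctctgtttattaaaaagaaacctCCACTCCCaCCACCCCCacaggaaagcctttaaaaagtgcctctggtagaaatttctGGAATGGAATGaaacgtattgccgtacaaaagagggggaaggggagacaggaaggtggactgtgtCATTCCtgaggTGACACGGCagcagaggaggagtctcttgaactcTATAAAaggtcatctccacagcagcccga
Krt8 (chr15:102004483-102004592, minus strand): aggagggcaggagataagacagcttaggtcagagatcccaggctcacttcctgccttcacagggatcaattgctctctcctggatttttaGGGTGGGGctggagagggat
Krt18 (chr15:102027966-102028179, plus strand): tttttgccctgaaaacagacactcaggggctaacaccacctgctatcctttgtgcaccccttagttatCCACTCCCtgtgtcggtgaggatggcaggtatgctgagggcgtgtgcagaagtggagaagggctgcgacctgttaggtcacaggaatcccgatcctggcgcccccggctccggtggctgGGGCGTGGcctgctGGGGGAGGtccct

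The Krt23 window held no match to any of the 7 motifs. The Krt20 window held a TATA box beginning 29 bases before the start site, a motif found in 12.4% of the 32851 promoters of the table. It also held 3 matches to the TEAD motif (12.6% of promoters have at least 1), 1 to the antioxidant response element core (10.2%) and 2 to the CACCC-type box (45.9%). The Krt8 window had 1 CACCC-type match and that of Krt18 had 3. In the Krt7 window, not shown, there were 4 GC boxes (32.7% of promoters have at least 1), of which 2 overlapped its 2 CACCC-type matches. Neither the AP-1 motif (6.75% of promoters) nor the CDX motif (4.204%) matched in any of the 5 windows. These matches describe the letters in short windows and nothing else.

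The other 49 keratin genes, among them those of skin, hair and stratified epithelia, were near or at 0. None reached a mean of 1 RPKM, so none entered the main fit; 13 were listed at 0 in every library, and the highest single value was 0.93 RPKM. Summed, they came to 3.79 to 4.36 RPKM in DM-aKG and 1.98 to 2.54 RPKM in control. Of the 36 with a value above 0, 11 had all DM-aKG libraries above all controls and 1 had the reverse. Among those 11, Krt6a, Krt16, Krt27 and Krt84 were above 0 only in DM-aKG, so they entered the 36 through that group. Among all genes under the filter with a value above 0, 12.7% had all DM-aKG libraries above all controls. The share for the reverse was not computed. The genes named in the next sentences were picked after their values were seen. Krt80, a type II keratin of many epithelia, was at 0.69, 0.79 and 0.76 RPKM in DM-aKG, against 0.36, 0.25 and 0.33 RPKM in control. Krt5, the basal cell keratin of stratified epithelia, was at 0.38, 0.22 and 0.20 RPKM in DM-aKG, against 0.01, 0.00 and 0.01 RPKM in control. Krt6a, a keratin of wounded and stressed epidermis, was at 0.13, 0.20 and 0.14 RPKM in DM-aKG and was listed at 0 in all 3 controls. Krt10, a suprabasal keratin of epidermis, was the gene that went the other way, at 0.56, 0.50 and 0.45 RPKM in DM-aKG, against 0.93, 0.68 and 0.74 RPKM in control.

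In a limma fit without the filter, 5 of the 36 other keratins with a value above 0 were higher in DM-aKG at an adjusted p under 0.05. By limma these were Krt5 (adjusted p = 0.0193), Krt6a (0.00782), Krt39 (0.0424), Krt79 (0.00621) and Krt80 (0.00681). Krt6a was above 0 only in DM-aKG, and Krt5 and Krt79 did not exceed 0.01 and 0.03 RPKM in control. The calls of Krt5, Krt6a and Krt79 are thus not read as results. Of the genes under the filter with a value above 0, 6.81% were called higher in that fit. No other keratin was called lower by limma, and 1 had an unadjusted p under 0.05 in that direction. Values of this size rest on few reads and are rounded to 2 decimals, and a fold change on the log2(RPKM + 0.5) scale understates them.

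**Figure D4:**
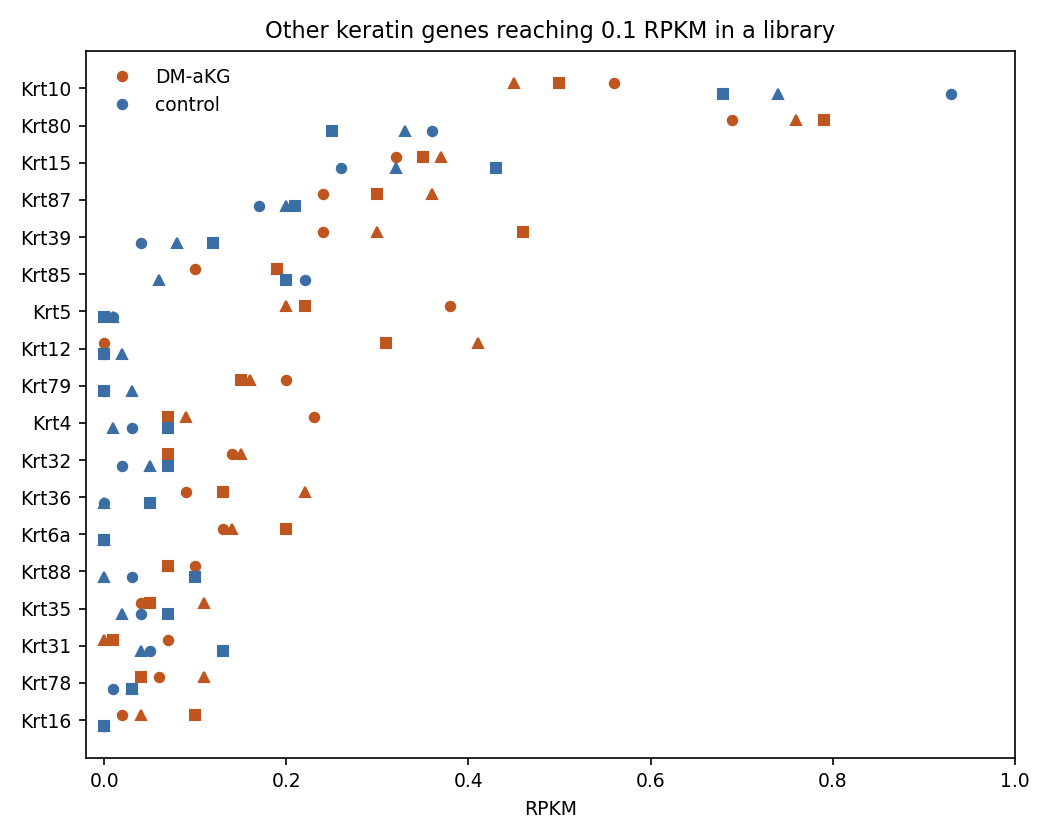
RPKM (horizontal axis) of the 18 other keratin genes that reached 0.1 RPKM in a library, by library (circle, square and triangle for replicates 1, 2 and 3), DM-aKG in orange above control in blue. No value exceeds 0.93 RPKM; Krt80 and Krt5 lie higher in every DM-aKG library and Krt10 in every control library.

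The libraries held RNA of intestinal epithelium, with all 8 listed markers tested, Epcam at 327 to 342 RPKM in DM-aKG and 417 to 426 in control, and Vil1 at 195 to 217 RPKM in DM-aKG and 181 to 190.1 in control. Markers of stratified epithelium summed to 23.8 to 63.1 RPKM in DM-aKG and 4.65 to 6.46 RPKM in control. Most of the DM-aKG sum came from the desmosomal cadherin gene Dsg3 and the cornified envelope gene Sprr1a, the 2 of 18 that passed the filter. Dsg3 passed it only through its DM-aKG values, so its call is not read as a result. Sprr1a was at 10.5, 55.0 and 57.6 RPKM in DM-aKG, against 4.75, 3.16 and 4.91 RPKM in control (limma, log2 fold change 2.81 ± 0.58, adjusted p = 0.00475). The defining genes of that epithelium were at or near 0: Trp63 did not exceed 0.01 RPKM, Krt14 did not exceed 0.04, and Krt17 was listed at 0 throughout. Fibroblast and muscle markers summed to 5.06 to 6.07 RPKM in DM-aKG and 3.45 to 3.64 in control, most of it Vim, with Col3a1, Dcn and Lum at 0. Immune markers summed to 2.30 to 3.57 RPKM in DM-aKG and 1.85 to 2.01 in control, and endothelial and glial markers to at least 1.36 RPKM in DM-aKG and at most 0.88 in control, with Cd3g, Cdh5 and Kdr at 0. Some markers above 0 stood higher in every DM-aKG library. S100b was at 0.88, 0.77 and 0.90 RPKM in DM-aKG, against 0.27, 0.21 and 0.33 in control. Pecam1 was at 0.31, 0.34 and 0.28 RPKM in DM-aKG, against 0.11, 0.14 and 0.17 in control. The immune marker Lyz2 went the other way, at 0.09, 0.24 and 0.19 RPKM in DM-aKG, against 0.54, 0.43 and 0.37 in control. The part of these small sums in the keratin values was not tested.

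Desmosomes anchor keratin filaments at contacts between cells. The desmosome list had 16 genes, of which 10 were tested: 8 came out higher, 0 lower and 2 uncalled, where 30.9% of all tested genes were higher and 24.7% lower. Without Dsg3, which passed the filter only through its DM-aKG values, 7 of 9 were higher, with a median log2 fold change of 0.30 beside 0.02 over all tested genes. Dsp, which encodes desmoplakin, the plakin that binds keratins at desmosomes, was at 69.1, 74.3 and 75.4 RPKM in DM-aKG, against 50.7, 51.8 and 48.6 RPKM in control (limma, log2 fold change 0.53 ± 0.05, adjusted p = 1.10e-04). Perp, a desmosomal tetraspan protein and p53 target, rose by 0.91 ± 0.05 on the log2 scale, and the plakophilin genes Pkp1 and Pkp3 by 0.74 ± 0.05 and 0.50 ± 0.05. Dsg3 was at 11.4, 3.70 and 3.99 RPKM in DM-aKG, against 0.37, 0.19 and 0.24 RPKM in control. Here DM-aKG replicate 1 was the highest library, the opposite of its place for the keratins. The desmocollin gene Dsc2 averaged 56.6 ± 1.70 RPKM in DM-aKG and 58.5 ± 4.29 in control (SD, n = 3 each; limma, adjusted p = 0.542).

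Plakins and keratin linkers numbered 14, of which 13 were tested: 8 came out higher, 0 lower and 5 uncalled, with a median log2 fold change of 0.73, beside 30.9% higher and 24.7% lower over all tested genes. Plec, which encodes plectin, the linker of keratins to hemidesmosomes, was at 19.8, 24.3 and 25.9 RPKM in DM-aKG, against 10.5, 10.03 and 9.78 RPKM in control (limma, log2 fold change 1.16 ± 0.09, adjusted p = 6.46e-05). Periplakin (Ppl) rose by 1.29 ± 0.06 on the log2 scale, envoplakin (Evpl) by 0.73 ± 0.07, epiplakin (Eppk1) by 0.74 ± 0.08 and the spectraplakin gene Macf1 by 0.82 ± 0.07. Itgb4, the hemidesmosomal integrin subunit that plectin binds, was at 47.6, 48.2 and 50.9 RPKM in DM-aKG, against 23.0, 22.4 and 22.5 RPKM in control (limma, log2 fold change 1.09 ± 0.04). Its partner subunit Itga6 averaged 55.4 ± 1.40 RPKM in DM-aKG and 55.5 ± 1.48 in control (SD, n = 3 each; limma, adjusted p = 0.9502). Fam83h, known in human cells to organize keratin filaments, rose by 0.93 ± 0.09. Under median centring, quantile normalization or array weights, and without DM-aKG replicate 1, 1 gene of this list was lower and 8 or 9 were higher.

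Of 17 other intermediate filament genes 6 were tested, 2 coming out higher and 4 lower, with a median log2 fold change of -0.34. Over all tested genes 30.9% were higher, a share close to that of these 6, and 24.7% lower. Lmna, which encodes the A-type nuclear lamins, was at 45.5, 50.2 and 53.9 RPKM in DM-aKG, against 20.0, 18.2 and 19.7 RPKM in control (limma, log2 fold change 1.34 ± 0.07, adjusted p = 8.60e-06). The B-type lamin genes Lmnb1 and Lmnb2 fell by 0.37 ± 0.07 and 0.30 ± 0.05 on the log2 scale. Iffo2, an orphan member of the intermediate filament family, was at 6.41, 5.95 and 5.86 RPKM in DM-aKG, against 8.69, 8.67 and 7.80 RPKM in control (limma, adjusted p = 8.17e-04). Vimentin (Vim), the filament of mesenchymal cells, was at 4.97, 3.80 and 4.26 RPKM in DM-aKG, against 2.79, 3.00 and 2.71 RPKM in control, below all 6 keratins in every library. With no filter on low values, which adds the untested genes of the list, 4 were higher and 5 lower.

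Of 20 transcription factors known to act on keratin genes or on epithelial differentiation 18 were tested, 6 coming out higher, 9 lower and 3 uncalled. The share higher was near the 30.9% over all tested genes, whereas the share lower was above the 24.7% over all tested genes. Without Fosl1, which passed the filter only through its DM-aKG values, 5 of 17 were higher and 9 lower, with a median log2 fold change of -0.16. Fosl1, an AP-1 subunit, was at 2.16, 3.59 and 3.81 RPKM in DM-aKG, against 0.09, 0.10 and 0.09 RPKM in control. Grhl1, a grainyhead factor of surface epithelia, rose by 1.17 ± 0.11 on the log2 scale and the AP-1 gene Junb by 0.80 ± 0.12. Klf4, a factor of differentiated surface cells, fell by 0.68 ± 0.08, and the intestinal identity factors Cdx2 and Hnf4a fell by 0.81 ± 0.13 and 0.32 ± 0.04. Cdx2 was at 50.8, 34.9 and 36.0 RPKM in DM-aKG, against 70.1, 68.4 and 72.4 RPKM in control, with DM-aKG replicate 1 nearest to the controls. With no filter on low values, which adds the untested genes of this list, 4 were higher and 5 lower.

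All 22 genes for keratin kinases, 14-3-3 adaptors and keratin turnover were tested, 11 coming out higher, 4 lower and 7 uncalled, with a median log2 fold change of 0.16, beside 30.9% higher and 24.7% lower over all tested genes. Sfn, the epithelial 14-3-3 protein, was at 110.3, 150.1 and 155 RPKM in DM-aKG, against 41.4, 37.5 and 40.1 RPKM in control (limma, log2 fold change 1.77 ± 0.12, adjusted p = 3.31e-05). Sqstm1, whose protein p62 gathers with keratins in Mallory-Denk bodies of the liver, rose by 0.55 ± 0.04, and the receptor gene Tnfrsf1a by 0.48 ± 0.04. Casp6, a caspase that cleaves type I keratins and lamin A, was at 21.1, 20.1 and 20.7 RPKM in DM-aKG, against 37.3, 35.8 and 36.2 RPKM in control (limma, log2 fold change -0.81 ± 0.04, adjusted p = 7.50e-06). Of this list 2 genes were lower without control replicate 1, control replicate 3 or DM-aKG replicate 3, and 7 with array weights. Without each of those libraries 10 or 11 were higher, and with array weights 13 were.

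Of 16 genes of surface enterocytes, the cells in which Krt20 is known, 10 were tested, 4 coming out higher, 3 lower and 3 uncalled, with a median log2 fold change of 0.08. These shares lie near the 30.9% higher and 24.7% lower over all tested genes. Emp1, an epithelial membrane protein, was at 72.7, 107 and 106 RPKM in DM-aKG, against 25.1, 18.3 and 20.6 RPKM in control (limma, log2 fold change 2.12 ± 0.17, adjusted p = 5.69e-05). The peptidase gene Anpep and the fatty acid binding protein gene Fabp1 rose by 0.58 ± 0.05 and 0.58 ± 0.06 on the log2 scale. Guca2a, which encodes the peptide guanylin, fell by 1.46 ± 0.22. Ceacam20, a brush border adhesion molecule, was at 2.26, 3.07 and 3.51 RPKM in DM-aKG, against 7.63, 5.92 and 6.25 RPKM in control. Without control replicate 2 and DM-aKG replicate 1 together, 5 genes of this list were lower and 5 higher.

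**Figure D5:**
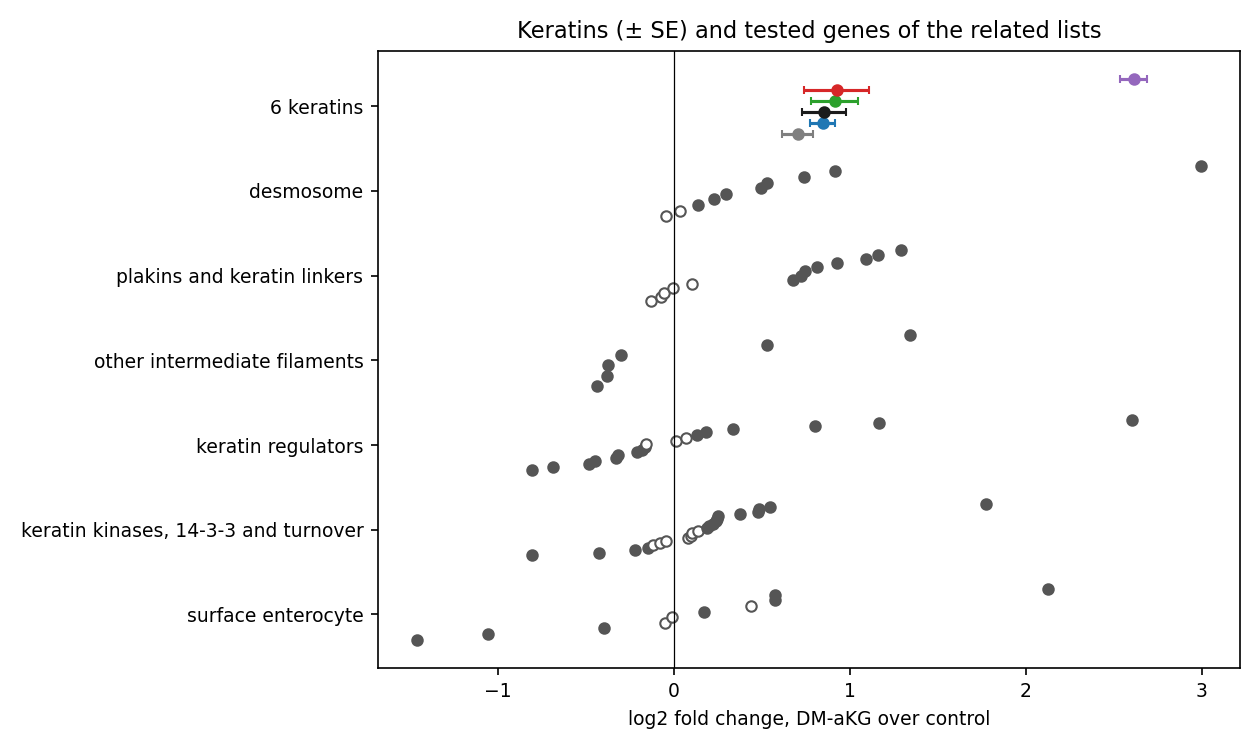
log2 fold change of DM-aKG over control (horizontal axis) for the 6 keratins (coloured as in the plot of each library, with SE) and for the tested genes of 6 related lists (filled, adjusted p under 0.05 by limma; open, not called). Desmosome and plakin genes lie at or above 0 except for a few open points, and the other 4 lists spread to both sides.

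The genes with the most similar course over the 6 libraries were found by the root mean square (RMS) difference of log2(RPKM + 0.5) profiles, each centred on its own mean. Genes with clone or gene model names were skipped. Closest to Krt8 were Epha4 (0.04), Anxa5 (0.05) and Rpusd3 (0.05). Its nearest keratin, Krt18, was at 0.06, in place 8 with no gene skipped. The nearest to Krt18 were Tmcc3 (0.03), Pmaip1 (0.06) and Krt8 itself, which was in place 4 with no gene skipped. Around Krt19 were Pdlim7 (0.02), Sdcbp2 (0.03) and Dock5 (0.03), and around Krt7 were Cpeb2 (0.02), Flna (0.02) and Cisd1 (0.03). Krt20 had no very close neighbour, with Sprr2f at 0.08, Cyp2d22 at 0.12 and Rnd3 at 0.12. Like Krt20, Sprr2f was highest in replicate 1 among the controls, at 1.30, 2.40 and 2.21 RPKM in DM-aKG and 1.09, 0.54 and 0.70 RPKM in control. Sprr2f averaged below 1 RPKM in control, so it passed the filter only through its DM-aKG values. Krt23 lay nearest to S100a6 (0.05), Akr1b8 (0.06) and S100a14 (0.06), and its nearest keratin, Krt18, was 0.85 away. S100a6 was at 175, 200.3 and 188 RPKM in DM-aKG, against 30.9, 28.9 and 28.6 RPKM in control. The 6 libraries fall into 2 groups, so a like difference between them is enough to bring profiles close.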

How the data were processed

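The authors deposited RPKM with 2 decimals for 24956 genes and 6 libraries. Partek, HISAT2 2.0.4, CASAVA 1.8 and the build mm10 are named, per the submitters' processing notes, with no annotation or counting rule given. Columns were matched to samples by title. Values were taken as log2(RPKM + 0.5), and genes with a mean of at least 1 RPKM over all 6 libraries (10852) were compared across all genes with limma 3.58.1 in R 4.3.3 (trend, two-sided, Benjamini-Hochberg, adjusted p under 0.05), after testing on simulated data. RPKM depends on the other genes of a library. Depth, estimated from the RPKM steps of short (at most 150 bases) snoRNA and miRNA genes, was 32.7 to 34.2 × 10⁶ reads per library; with the longest annotated transcript as length, the lowest keratin value (Krt23) stands for about 629 reads, a counting error of 3.99%. Intervals made from such read counts would cover counting error only, whereas the SEs given here come from the limma fit and hold the spread between libraries.

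The members and gene lists were chosen with earlier results of these data known. Named genes are the members, the 4 genes with the lowest p in each related list drawn with the keratins, and the 3 most similar genes per keratin. Others, among them the cell type markers, were named after their values were seen. Pseudogene copies were sought with blastn 2.17.0 (at least 90% identity over 300 bases). Alternatives covered the pseudocount, filter, scaling, variance model, a replicate block and the omission of libraries; dropping DM-aKG replicate 1 along with control replicate 2 was chosen after seeing the data. Tables and plots were made with matplotlib 3.10.9, pandas 2.3.3, numpy 2.4.6 and Python 3.11.15.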

Additional observations from a re-analysis of the deposited data

How the results depend on the processing

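Quantile normalization moved the log2 difference to 1.18 for Krt8 and 1.01 for Krt19, and dropping DM-aKG replicate 1 along with control replicate 2 moved that of Krt7 to 0.85; the cause was not tested. The type II to type I ratio differed by -0.08 on the log2 scale, and by -0.024 when taken as Krt8 over Krt18 and Krt19. Leaving out each library in turn gave log2 differences of 0.77 to 1.01 for Krt8, 0.75 to 1.11 for Krt20 and 2.56 to 2.70 for Krt23, and 2689 to 3674 genes called higher. Deviations of libraries with the same replicate number correlated at -0.08, -0.11 and 0.01 across genes. The sources do not say whether the numbers pair the samples, and these correlations alone cannot settle it. With the replicate block 3206 genes were higher and 2542 lower. With 3 libraries a group the spread itself is poorly known. Keratins below 1 RPKM rest on few reads, so their fold changes are uncertain and are not given.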

Other observations

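Of 14 tested genes outside the set whose start lies within 250 kb of the start of any of the 6 keratins, 7 were higher in DM-aKG, 3 lower and the rest not called by limma, with a median log2 fold change of 0.08; over all tested genes 30.9% were higher and 24.7% lower. Near Krt8 or Krt18 lay Eif4b (log2 fold change -0.08 ± 0.06) and Tns2 (-0.07 ± 0.07), neither called, Soat2, a cholesterol esterifying enzyme (0.35 ± 0.04, called), and Rarg, a retinoic acid receptor, with 0.97 ± 0.07 (limma, adjusted p = 4.01e-05). The others there were Spryd3 (0.28 ± 0.08, called higher), Zfp740 (-0.15 ± 0.04, called lower) and Csad, a decarboxylase of taurine synthesis, which fell by 0.53 ± 0.10 on the log2 scale. Near Krt7 the nuclear receptor gene Nr4a1 rose by 0.90 ± 0.12 on the log2 scale. Smarce1, a chromatin remodelling subunit and the tested neighbour of Krt20 outside the set, fell by 0.30 ± 0.05. Jup, the desmosomal plakoglobin gene near Krt19, is also in the desmosome list. Krt23 had no tested neighbour within that distance other than Krt20.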
